A study of Homo sapiens with 9 samples.

Results

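Levels of 10 genes of Wnt secretion and its antagonism were examined in A549 cells: the ligands WNT9A, WNT10B, WNT11 and WNT5A, the secreted inhibitors DKK1, DKK3, SFRP1 and SFRP4, and PORCN and WLS, which make and release active ligand. They were picked by gene symbol, with earlier results of these data known. All 10 were found among 31080 named genes, on 11 rows because WNT5A was split over 2. Their mRNA was measured by RNA sequencing in A549, an established human lung adenocarcinoma line, to ask how depletion of Cyclin K, the regulatory partner of CDK12 and CDK13, affects gene expression. The 9 libraries fall into 3 groups of 3, all 48 h after transfection: a scrambled control siRNA (labelled siCtrl), siCyclin K#1 and siCyclin K#2. The siRNAs lower the mRNA of CCNK, the gene of Cyclin K, without deleting it, a single cell line was used, all 3 groups were transfected, and no untransfected cells were analysed here. The design text calls the 3 samples of each group independent and says nothing further on how they were grown, so p-values measure the spread between these samples.

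Wnt proteins are secreted glycoproteins that need a fatty acid to reach their receptors. PORCN, an acyltransferase of the endoplasmic reticulum, attaches that lipid, and WLS, a membrane carrier, takes the finished ligand to the cell surface. Outside the cell, ligands bind Frizzled receptors together with LRP5 or LRP6 to stabilize β-catenin, or act through ROR and RYK receptors without it. SFRP proteins carry a Frizzled-like domain and bind Wnt ligands directly, whereas DKK1 blocks LRP5 and LRP6. DKK1 is itself a target gene of β-catenin and TCF in many cells.

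Expression was given as FPKM (fragments scaled by gene length and library depth), which sets levels per length, so that levels of different genes can be compared. Differences were tested with limma on log2(FPKM + 0.1) over 21048 genes, and a gene was called at a Benjamini-Hochberg adjusted p under 0.05. All fold changes below are on that scale, which understates the change of low genes. Fragment numbers recovered from the FPKM values put the libraries at 31333728 to 33767932 fragments. CCNK fell from 7.02 ± 0.107 FPKM (SD, n = 3) with scrambled siRNA to 0.809 ± 0.0857 after siCyclin K#1 and 0.844 ± 0.0661 after siCyclin K#2 (log2 fold change -2.94, SE 0.10, limma adjusted p = 1.7e-07). Of 8 markers of A549 cells, KRT8, KRT18, AKR1B10, AKR1C2, ALDH1A1 and CDH1 were measured, whereas EPCAM reached no more than 0.279 and KRT19 no more than 0.108 FPKM in any library and did not pass the filter on low values.

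With scrambled siRNA the 10 genes spanned a wide range of levels, from DKK1 at 115 ± 2.97 FPKM to WNT11 at 0.0291 ± 0.0310. SFRP1 (15.1 FPKM), PORCN (10.5), WLS (7.44), DKK3 (3.73), WNT5A (2.91), WNT10B (1.62), SFRP4 (0.307) and WNT9A (0.255) lay between them in that order. Only the neighbours SFRP4 and WNT9A overlapped in their library values, between 0.279 and 0.361 and between 0.172 and 0.396 FPKM. After siCyclin K#1, SFRP4 (3.38 FPKM) and WNT9A (1.00) both stood above WNT10B (0.681), and the lowest SFRP1 library no longer exceeded the highest WLS library. After siCyclin K#2, PORCN (7.21) overlapped with SFRP1 (7.92) and with WLS (7.09), although these last did not overlap with each other, and there was overlap among SFRP4 (1.04), WNT9A (0.950) and WNT10B (0.797).

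**Figure D1:**
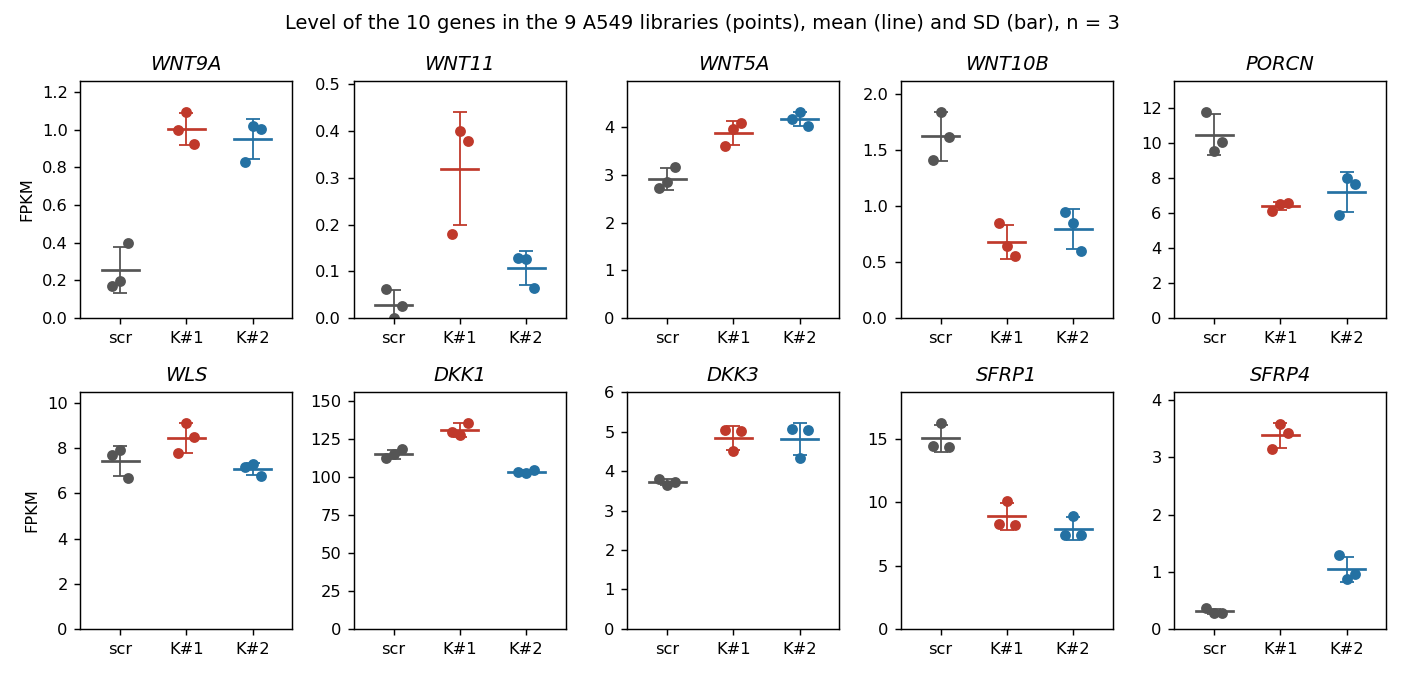
Level of each of the 10 genes in FPKM (y axis from 0, a scale of its own per gene) in the scrambled (scr), siCyclin K#1 (K#1) and siCyclin K#2 (K#2) libraries. Points are libraries, lines group means and bars the SD (n = 3). All 6 Cyclin K siRNA libraries lie above the scrambled ones for WNT9A, WNT11, WNT5A, DKK3 and SFRP4 and below them for WNT10B, PORCN and SFRP1.

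All 10 genes passed the filter on low values, WNT11 only through the Cyclin K siRNA libraries. Over both siRNAs, 8 of the 10 passed the test, against 28.6% of all genes tested. Because the 10 were chosen with earlier results known, this and the later shares of all genes are given as description only. In bulk RNA, a change in the share of cells that express a gene and a change per cell cannot be told apart. WNT9A, WNT11, WNT5A, DKK3 and SFRP4 were higher (17.0% of all genes were called higher), and WNT10B, SFRP1 and PORCN were lower (11.5%). The same 8 genes had all 6 Cyclin K siRNA libraries beyond all 3 scrambled ones, as did 32.6% of all genes. The median log2 fold change of the 10 genes was 0.21, beside 0.06 for all genes. Only WNT9A and SFRP4 also passed the threshold in the study's methods, more than 3-fold at an unadjusted p below 0.01, which 2.29% of all genes passed. It was applied here to the limma fold change and p on log2(FPKM + 0.1), whereas the study's results text speaks of at least 2-fold. An exact two-sided permutation test of 6 against 3 libraries, whose smallest possible p is 0.0119, gave that value for WNT9A, WNT10B, WNT5A, DKK3, SFRP1 and PORCN, 0.0238 for SFRP4, 0.0357 for WNT11, 0.881 for DKK1 and 0.560 for WLS.

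Among the ligands, WNT9A, best known from joint and skeletal development, rose over both siRNAs by 1.65 on the log2(FPKM + 0.1) scale (SE 0.20, limma adjusted p = 2.6e-04), the largest called rise of the 4 on that scale. By limma-voom on recovered fragments it was 2.02 (adjusted p = 2.6e-04), below WNT11 at 2.89, which was then not called (0.076). It lies on the minus strand at chr1:227918656-227947898 (GRCh38), with 3971 exonic bases. Its level was 0.172, 0.198 and 0.396 FPKM in the scrambled libraries, 0.996, 1.09 and 0.925 after siCyclin K#1, and 0.830, 1.02 and 1.00 after siCyclin K#2. Every Cyclin K siRNA library was above every scrambled one, and the third scrambled library stood higher than the other two. These levels rested on few fragments, 23 to 51 per scrambled library and 106 to 136 per Cyclin K siRNA library. The log2 fold change was 1.69 after siCyclin K#1 (limma adjusted p = 3.2e-04) and 1.61 after siCyclin K#2 (6.2e-04). The siRNAs did not differ detectably from each other (difference 0.07, 95% confidence interval -0.45 to 0.60, adjusted p = 0.853).

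The start of WNT9A is printed because WNT9A was called with either siRNA under each alternative that tested it and because the window around its start is unusually rich in CpG. In the RefSeq promoter table (GRCh38.p14, 250 bases before to 50 after a start), which held 6 of the 10 genes, the WNT9A window at chr1:227947883-227948182 on the minus strand holds 83.0% G and C and 53 CpG sites, at percentiles 99.3 and 99.5 of the 35116 windows, whose medians are 58.7% and 14. It reads as follows, 5′ to 3′ in lower case, with no match to the letters searched below.
WNT9A: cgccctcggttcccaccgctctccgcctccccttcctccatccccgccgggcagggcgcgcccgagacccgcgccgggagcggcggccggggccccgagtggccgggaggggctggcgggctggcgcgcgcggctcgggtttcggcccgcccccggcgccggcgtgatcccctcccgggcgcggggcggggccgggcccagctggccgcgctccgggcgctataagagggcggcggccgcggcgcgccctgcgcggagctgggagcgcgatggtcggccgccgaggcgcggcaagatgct

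WNT11, a ligand known for guiding cell movement without β-catenin, was hardly detected with scrambled siRNA. It lies at chr11:76186325-76210736 on the minus strand. The scrambled libraries held 5, 0 and 2 fragments of it, the siCyclin K#1 libraries 14, 30 and 30, and the siCyclin K#2 libraries 10, 10 and 5. In FPKM these are 0.0617, 0 and 0.0257, then 0.180, 0.399 and 0.379, then 0.130, 0.125 and 0.0654. The lowest siCyclin K#2 library was therefore barely above the highest scrambled one. Summed over a group and scaled for depth, siCyclin K#1 held 10.7 times the fragments of scrambled (95% interval 4.95 to 27.6) and siCyclin K#2 3.60 times (1.51 to 9.86), intervals that cover counting error only. With siCyclin K#1 the log2 fold change was 1.68 (limma adjusted p = 0.0025), and after siCyclin K#2 it was 0.69 (0.138), which did not pass. The call over both siRNAs (1.19, adjusted p = 0.0468) was lost in 8 of 9 fits that left out 1 library, where adjusted p ranged from 0.024 to 0.163 and only the fit without the third siCyclin K#2 library kept it. An antisense transcript, AP000785.1, shares 204 exonic bases with WNT11, and it was listed at 0 in all libraries except the second scrambled one (0.102 FPKM).

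WNT5A, a ligand of the β-catenin-independent branch that signals through ROR receptors, was the most abundant of the 4 ligands and changed little in size but evenly. It lies at chr3:55465715-55490539 on the minus strand. It measured 2.72, 2.85 and 3.16 FPKM with scrambled siRNA, 3.60, 3.97 and 4.08 after siCyclin K#1, and 4.16, 4.32 and 4.03 after siCyclin K#2. The groups did not overlap with scrambled, and the means were 1.33 and 1.43 times the scrambled mean. Log2 fold changes were 0.41 (limma adjusted p = 0.0025) and 0.51 (1.0e-03).

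WNT10B was the only one of the 4 ligands to fall. It acts through β-catenin and is known for promoting bone formation and restraining fat cell formation. The gene lies at chr12:48965340-48971763 on the minus strand. Its level was 1.41, 1.84 and 1.62 FPKM with scrambled siRNA, 0.846, 0.643 and 0.554 after siCyclin K#1, and 0.947, 0.848 and 0.597 after siCyclin K#2. Each Cyclin K siRNA library was below each scrambled one, and 42.0% and 49.1% of the scrambled mean were left. The log2 fold change was -1.15 after siCyclin K#1 (limma adjusted p = 0.0014) and -0.95 after siCyclin K#2 (0.0055), with a difference of -0.20 between them (95% confidence interval -0.65 to 0.26). Between 48 and 154 fragments per library lay behind these values.

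The genes that prepare and carry the ligands behaved differently from each other. PORCN (chrX:48508962-48520814, plus strand) measured 11.8, 9.57 and 10.1 FPKM with scrambled siRNA, 6.15, 6.51 and 6.61 after siCyclin K#1, and 5.91, 8.03 and 7.69 after siCyclin K#2. All Cyclin K siRNA libraries were below the scrambled ones, with the first siCyclin K#2 library lowest. Log2 fold changes were -0.69 (SE 0.12, limma adjusted p = 0.0014) and -0.54 (SE 0.12, 0.0074). WLS (chr1:68098473-68233120, minus strand) measured 7.70, 7.91 and 6.70 FPKM with scrambled siRNA, 7.79, 9.12 and 8.49 after siCyclin K#1, and 7.19, 7.28 and 6.79 after siCyclin K#2. The Cyclin K siRNA libraries overlapped with the scrambled ones for WLS, and neither siRNA passed (log2 fold change 0.19, 95% confidence interval 0.00 to 0.37, adjusted p = 0.094, and -0.07, -0.25 to 0.12, adjusted p = 0.584). WLS shares 111 exonic bases with the antisense transcript GNG12-AS1, which was listed at 0.165 to 0.403 FPKM.

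Of the 4 secreted inhibitors, SFRP4 changed most, and its log2 fold change over both siRNAs (2.29, SE 0.47, limma adjusted p = 0.0054) and after siCyclin K#1 was the largest of the 10 genes on the log2(FPKM + 0.1) scale. After siCyclin K#2 WNT9A changed more, and by limma-voom on recovered fragments the value over both siRNAs was larger for WNT11 (2.89, adjusted p = 0.076) than for SFRP4 (2.59, 0.024). It binds Wnt ligands and is known as an antagonist in bone and ovary. The gene lies at chr7:37905932-38025695 on the minus strand. SFRP4 measured 0.361, 0.279 and 0.282 FPKM with scrambled siRNA, 3.14, 3.58 and 3.42 after siCyclin K#1, and 1.29, 0.868 and 0.966 after siCyclin K#2. The 3 groups did not overlap. Fragments numbered 32 to 44 per scrambled library, 367 to 407 after siCyclin K#1 and 104 to 150 after siCyclin K#2. The group means were 11.0 and 3.39 times the scrambled mean, with log2 fold changes of 3.10 (SE 0.16, limma adjusted p = 8.1e-07) and 1.48 (SE 0.16, 1.1e-04). On the scale of the test, siCyclin K#2 fell just short of the study's 3-fold threshold. COL1A1, COL3A1 and LUM, markers of fibroblasts, had summed levels of 2.16 to 2.61 FPKM in the scrambled, 15.3 to 17.2 in the siCyclin K#1 and 3.42 to 3.60 in the siCyclin K#2 libraries. COL1A1 made up most of these sums (2.03, 14.0 and 3.19 FPKM) and was alone in following the order of SFRP4, since LUM stood at 0.356, 2.28 and 0.318 FPKM and COL3A1 did not exceed 0.0227 FPKM in any library. The other 5 of the 8 markers of other cell types were CD68, at 30.3 FPKM with scrambled siRNA, and PTPRC, PECAM1, CDH5 and MYH11, which summed to 0.0273 to 0.103 FPKM. Their part in the SFRP4 result was not tested.

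The SFRP4 start is printed because it belongs to the gene with the largest change after siCyclin K#1 on the log2(FPKM + 0.1) scale. The window at chr7:37916768-37917067 on the minus strand holds 66.3% G and C and 23 CpG sites, and starts well inside the annotated gene span, whose far end lies upstream.
SFRP4: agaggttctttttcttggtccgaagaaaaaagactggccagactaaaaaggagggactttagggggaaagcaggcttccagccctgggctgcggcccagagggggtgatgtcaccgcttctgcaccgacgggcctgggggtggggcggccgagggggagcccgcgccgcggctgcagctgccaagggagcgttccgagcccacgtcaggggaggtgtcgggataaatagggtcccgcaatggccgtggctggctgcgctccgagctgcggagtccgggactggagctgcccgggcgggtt

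SFRP1, the family member whose silencing is known from many tumours, moved the other way from SFRP4. It lies at chr8:41261958-41309497 on the minus strand. It measured 14.4, 16.3 and 14.4 FPKM with scrambled siRNA, 8.32, 10.1 and 8.22 after siCyclin K#1, and 7.40, 8.95 and 7.43 after siCyclin K#2. No Cyclin K siRNA library reached the scrambled range, and in each group the second library was the highest. Log2 fold changes were -0.76 (SE 0.10, limma adjusted p = 3.7e-04) and -0.92 (SE 0.10, 1.7e-04). The summed level of SFRP1 and SFRP4 went from 15.4 ± 1.06 FPKM to 12.3 ± 1.26 after siCyclin K#1 and 8.97 ± 0.750 after siCyclin K#2 (SD, n = 3), and the share of SFRP4 in that sum from 2.01% to 27.7% and 11.7%. All Cyclin K siRNA libraries lay below the scrambled ones in the sum.

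DKK1 was the most abundant of the 10 genes in every library and the only one called in opposite directions with the siRNAs. It lies at chr10:52314296-52318042 on the plus strand. Its level was 112, 115 and 118 FPKM with scrambled siRNA, 130, 128 and 136 after siCyclin K#1, and 104, 103 and 105 after siCyclin K#2. The groups did not overlap, siCyclin K#1 being highest and siCyclin K#2 lowest, with 7347 to 9884 fragments per library. The log2 fold changes were small, 0.19 (SE 0.03, limma adjusted p = 0.0015) and -0.15 (SE 0.03, 0.0061), and over both siRNAs 0.02 (95% confidence interval -0.21 to 0.25, adjusted p = 0.926). The rise after siCyclin K#1 was not called when the libraries were rescaled by the median ratio of their genes (0.07, limma adjusted p = 0.181). That step removed a median shift of 0.10 between these groups. Without rescaling, DKK1 rose by 0.08 relative to the median gene. After quantile normalization the rise of DKK1 after siCyclin K#1 was 0.34 (limma adjusted p = 9.3e-06). DKK1 shares 212 exonic bases with the antisense transcript PRKG1-AS1, which lay between 0.22 and 0.64 FPKM, far below DKK1.

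The DKK1 start is shown because DKK1 is a textbook target of TCF factors. Each window was searched on both strands for CTTTGNT, the core of TCF and LEF sites, and for TATAAA, the TATA box, which do not overlap in their letters. They occur in 15.4% and 11.5% of all 35116 windows of that length. Of the 6 genes with a window, only DKK1 held either, each on the strand of the gene, CTTTGTT at position -76 and TATAAA at position -30 from the start. Capitals mark both in the window at chr10:52314031-52314330 (plus strand).
DKK1: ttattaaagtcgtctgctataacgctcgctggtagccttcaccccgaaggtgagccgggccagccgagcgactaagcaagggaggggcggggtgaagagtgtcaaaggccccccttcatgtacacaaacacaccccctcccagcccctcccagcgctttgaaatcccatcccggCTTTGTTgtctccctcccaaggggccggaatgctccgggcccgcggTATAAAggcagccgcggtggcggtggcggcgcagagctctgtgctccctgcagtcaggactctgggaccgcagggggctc
A match of letters is no evidence of binding.

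DKK3 is a divergent member of the DKK family, often silenced in tumours, that does not share the receptor block of DKK1. It lies at chr11:11963106-12009769 on the minus strand. It measured 3.80, 3.65 and 3.72 FPKM with scrambled siRNA, 5.04, 4.50 and 5.01 after siCyclin K#1, and 5.07, 4.34 and 5.05 after siCyclin K#2. All Cyclin K siRNA libraries were above the scrambled ones, and the second library was the lowest of each group. Log2 fold changes were 0.37 (limma adjusted p = 0.0040) and 0.36 (0.0064), with a difference of 0.01 (95% confidence interval -0.16 to 0.19). After quantile normalization the call was lost over both siRNAs (0.23, adjusted p = 0.064) and for siCyclin K#1 (0.21, adjusted p = 0.060).

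**Figure D2:**
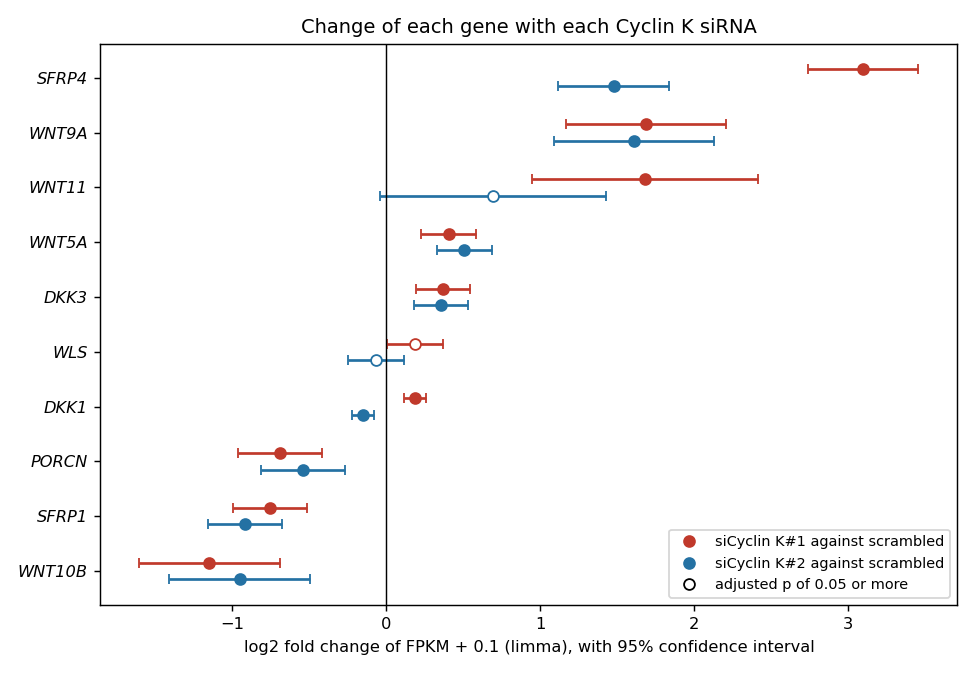
Log2 fold change of each gene (x axis, FPKM + 0.1, limma) against scrambled for siCyclin K#1 (red) and siCyclin K#2 (blue), with 95% confidence intervals. Open points had an adjusted p of 0.05 or more (WNT11 after siCyclin K#2, and WLS with both). SFRP4 stands apart between the siRNAs at 3.10 and 1.48, and DKK1 at 0.19 and -0.15.

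By siRNA, 9 of the 10 genes were called after siCyclin K#1, 6 higher and 3 lower, where 44.8% of all genes were called (26.8% higher and 18.1% lower). With siCyclin K#2, 8 were called, 4 higher and 4 lower, against 34.9% of all genes (19.8% higher and 15.2% lower). Both counts rest on the same 3 scrambled libraries. The groups did not overlap for 9 of the 10 genes with either siRNA, as they did not for 53.5% of all genes after siCyclin K#1 and 46.8% after siCyclin K#2. With 3 libraries against 3, an exact permutation test cannot go below 0.10, and it gave that value for each of these genes. The study's threshold was passed by WNT9A, WNT11 and SFRP4 after siCyclin K#1 (4.67% of all genes) and by WNT9A after siCyclin K#2 (1.94%).

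The direct comparison of the siRNAs called 4 of the 10 genes, all higher after siCyclin K#1, where 29.4% of all genes were called and 17.1% were higher. SFRP4 differed by 1.62 on the log2 scale (SE 0.16, limma adjusted p = 9.8e-05), and DKK1 by 0.34 (SE 0.03, 9.3e-05). These held in all 9 fits without 1 library, and SFRP4 alone passed the study's threshold here (1.53% of all genes). WNT11 differed by 0.99 (adjusted p = 0.0489) and WLS by 0.25 (0.0452), calls that held in 1 and 3 of those 9 fits, where adjusted p reached 0.157 and 0.141. For the same 4 genes all siCyclin K#1 libraries were above all siCyclin K#2 libraries, a separation that 42.7% of all genes showed in one direction or the other. For SFRP1 the difference was 0.16 (95% confidence interval -0.08 to 0.40, adjusted p = 0.299), for PORCN -0.15 (-0.43 to 0.12, 0.399), and for WNT5A -0.10 (-0.28 to 0.08, 0.389).

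The 4 ligands are part of a list of 19 human Wnt genes, of which 13 had a row and 9 passed the filter on low values. Over both siRNAs, 6 of the 9 were called higher and 1 lower, where 17.0% of all genes were called higher and 11.5% lower, with a median log2 fold change of 0.87. WNT3, a ligand of the β-catenin branch and the only other called ligand with a mean of at least 1 FPKM, rose from 0.900 ± 0.192 to 1.73 ± 0.110 and 1.66 ± 0.104 FPKM (0.86, limma adjusted p = 0.0011). WNT2B (0.99, adjusted p = 0.029) and WNT6 (1.49, 0.040) were the other 2 called higher, named here after their values were seen. WNT6 stood at 0.147 ± 0.0445 FPKM with scrambled siRNA, 1.09 ± 0.339 after siCyclin K#1 and 0.306 ± 0.0111 after siCyclin K#2. WNT2B, like WNT11, was below 0.1 FPKM in all scrambled libraries and passed the filter only through the others. None of the called ligands led the list, since WNT7B, also named after its values were seen, was the most abundant ligand in every group.

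WNT7B held 53.6% of the summed ligand FPKM with scrambled siRNA, 51.4% after siCyclin K#1 and 66.7% after siCyclin K#2. Its level was 7.39 ± 2.54, 10.3 ± 3.48 and 17.2 ± 3.54 FPKM, and it was not called over both siRNAs (0.87, limma adjusted p = 0.080) but was after siCyclin K#2 alone (1.26, adjusted p = 0.014). The summed ligand level was 10.0 to 15.6 FPKM in the scrambled libraries, 17.6 to 23.2 after siCyclin K#1 and 21.4 to 28.1 after siCyclin K#2, without overlap between scrambled and the rest. Within that sum the share of WNT10B fell from 12.3% to 3.57% and 3.08%, whereas the share of WNT9A went from 1.86% to 5.23% and 3.78%. WNT5A held 22.2%, 20.0% and 16.5%, and its siCyclin K#1 libraries overlapped with both other groups.

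Of 15 secreted inhibitors listed, 12 had a row and 6 passed the filter, with 3 called higher and 1 lower over both siRNAs (17.0% and 11.5% of all genes) and a median log2 fold change of 0.59. Beside SFRP4, DKK3 and SFRP1 the fourth call was IGFBP4, an insulin-like growth factor binding protein that also binds LRP6 and Frizzled. It rose from 186 ± 6.18 to 1307 ± 17.6 and 895 ± 4.02 FPKM (2.54, limma adjusted p = 4.6e-06) and was above DKK1 in every group. NOTUM, an enzyme that removes the Wnt lipid, was not called over both (0.82, limma adjusted p = 0.183) but was after siCyclin K#1 (1.45, 0.0022) and between the siRNAs (1.26, 0.0082), named here after its values were seen. It stood at 0.0750 ± 0.0377, 0.379 ± 0.109 and 0.0984 ± 0.0289 FPKM, and passed the filter on low values only through the siCyclin K#1 libraries. The list median of 0.59 lies between the values of DKK3 (0.36) and NOTUM (0.82) and so depends on NOTUM.

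**Figure D3:**
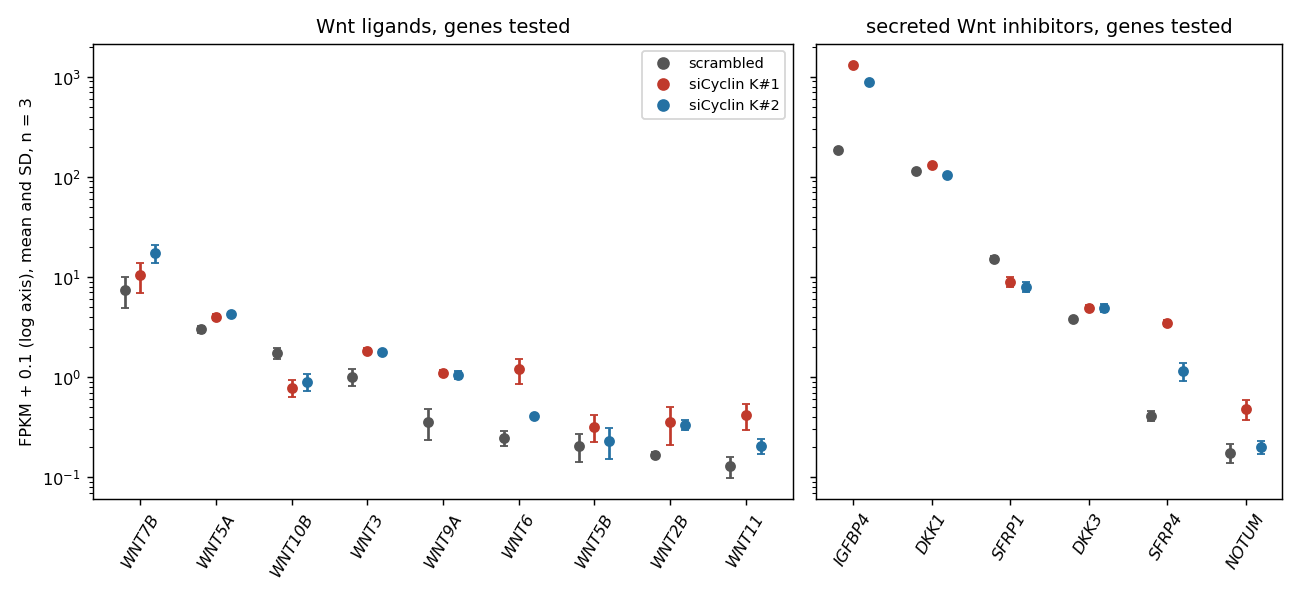
Mean level (FPKM + 0.1, log axis) with SD (n = 3) of the 9 tested Wnt ligands and the 6 tested secreted inhibitors, sorted by the scrambled mean, in scrambled (grey), siCyclin K#1 (red) and siCyclin K#2 (blue) libraries. With scrambled siRNA, WNT7B leads the ligands at 7.39 FPKM, below IGFBP4 at 186 and DKK1 at 115.

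Around PORCN and WLS, all 9 listed genes of Wnt production and transport were tested, and 4 were called higher and 1, PORCN, lower. The counts of this and the following lists stand beside 28.6% of all genes called over both siRNAs, 17.0% higher and 11.5% lower. The 4 were TMED10 (0.55), TMED2 (0.46), VPS29 (0.35) and SNX3 (0.30), carriers of vesicle and retromer traffic that serve many other cargoes. TMED10 and SNX3 were called with either siRNA, and VPS29 with neither alone (limma adjusted p = 0.053 and 0.070). TMED2 was called only after siCyclin K#2 (limma adjusted p = 0.031), where it varied widely (63.4 ± 19.0 FPKM). Of 7 genes for heparan sulfate handling of Wnt 4 were tested and 3 were called higher, the sulfatase SULF2 (1.79) and the glypicans GPC6 (1.49) and GPC1 (1.06). The R-spondin module had 1 higher (LGR4, 0.44) and 1 lower (ZNRF3, -0.35) of 4 tested. Of 17 tested receptors 4 were called higher, KREMEN2 (1.21), LRP6 (1.00), ROR1 (0.60) and LRP5 (0.38), and 2 lower, FZD3 (-0.53) and RYK (-0.42). Over both siRNAs the share called was near that of all genes. More receptors were called with each siRNA alone. They were 8 higher and 3 lower after siCyclin K#1 (26.8% and 18.1% of all genes), and 5 and 6 after siCyclin K#2 (19.8% and 15.2%). KREMEN2 rose by 1.75 after siCyclin K#1 and by 0.66 after siCyclin K#2.

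The list of 14 feedback targets of β-catenin also holds CCND1 and MYC, which the study names only as target genes. Of the 14, 11 had a row and 9 were tested, with 1 higher, NKD2 (1.04), and 2 lower, CCND1 (-1.96) and ZNRF3. Over both siRNAs this was again a share near the 28.6% of all genes, and the median log2 fold change was 0.02. After siCyclin K#1 3 were called higher and 2 lower, and after siCyclin K#2 1 higher and 4 lower (44.8% and 34.9% of all genes called). DKK1 and NOTUM belong to this list as well and were not called over both siRNAs. RNF43, counted here and in the R-spondin module, was read from a row shared with SUPT4H1. MYC, also counted as not called, had an SD above its mean in each group. It measured 6.71 ± 8.69 FPKM with scrambled siRNA, 10.1 ± 13.0 after siCyclin K#1 and 8.43 ± 10.1 after siCyclin K#2. The medians of the other lists were 0.19 for production and transport, 1.28 for heparan sulfate handling, 0.16 for the R-spondin module and 0.02 for receptors, beside 0.06 for all genes.

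**Figure D4:**
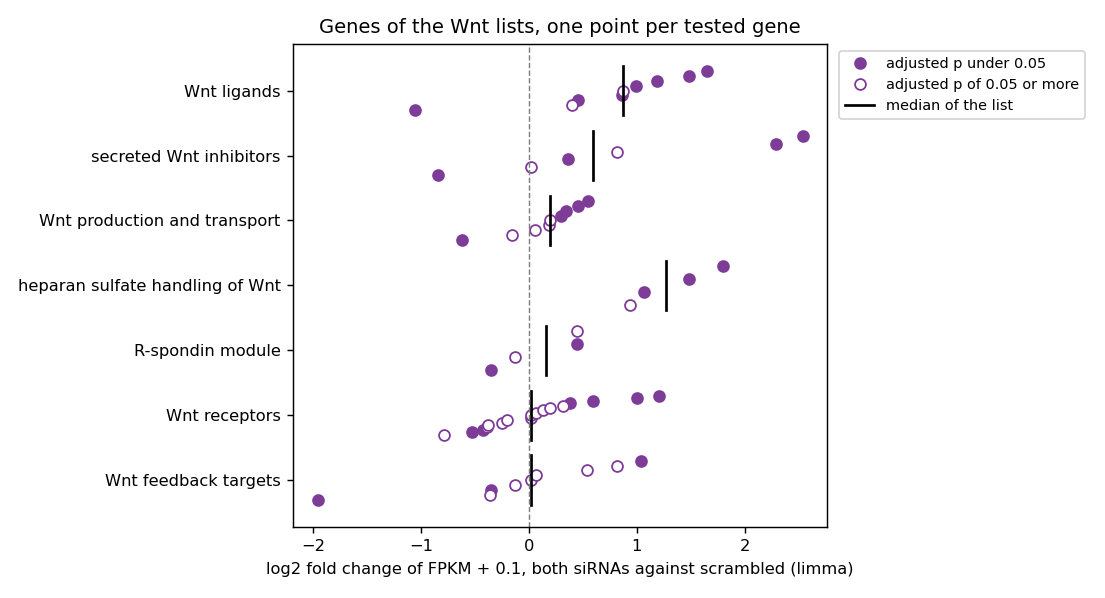
Log2 fold change over both siRNAs (x axis, FPKM + 0.1, limma) of each tested gene of 7 Wnt lists, 1 point per gene, with the median of each list as a black line. Filled points had an adjusted p under 0.05. Ligands, inhibitors and heparan sulfate genes have medians of 0.87, 0.59 and 1.28, and receptors and feedback targets of 0.02. WNT11 and WNT2B among the ligands and NOTUM among the inhibitors passed the filter on low values only through Cyclin K siRNA libraries.

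The profile over the 9 libraries was also compared with those of 11242 other genes with a mean of at least 1 FPKM, as a description without a test, since the 9 points share the 3 groups. SFRP1 was most like MMP19 (Pearson r of log2 values 0.990), DKK1 like GRAMD1A (0.989) and PORCN like the pseudogene RPL4P4 (0.989). For WNT10B it was C6orf48 (0.982), for WNT5A LAMTOR4 (0.982), for DKK3 GLIS1 (0.974) and for WLS CASC9 (0.952).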

How the data were processed

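Total RNA of A549 cells was sequenced in paired reads, and the authors deposited FPKM per gene and library, made with StringTie 1.3.3b per the labels. The aligner is not given in the sources used here. Gene identifiers and coordinates matched GENCODE 29 (GRCh38) for all 10 genes. Rows of one Ensembl gene were summed (47 genes, among them WNT5A), and 25125 loci without a reference gene were left out. The 1344 features that hold several genes were kept, each counted as a single gene. AKR1B10, on a row shared with AKR1B15, and RNF43 are among them. WNT5A and WLS lay on loci assembled by StringTie.

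limma 3.58.1 (R 4.3.3, lmFit and eBayes with trend) was run on log2(FPKM + 0.1) for 21048 genes with at least 0.1 FPKM in at least 3 libraries, as 2 groups for both siRNAs together and as 3 groups for each siRNA and their difference, with Benjamini-Hochberg adjustment. The code was tested on simulated data. The exact permutation tests and counting intervals used scipy 1.17.1. No sample was dropped or imputed.

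Fragments were recovered as FPKM times exon length and depth. They came out whole within 0.05 fragments for 85.1% of nonzero values of 27799 genes, and in all 9 libraries for WNT9A, WNT10B, WNT11, DKK1, SFRP1, SFRP4 and PORCN. They did not for DKK3 and could not be had for WNT5A and WLS. Strand use in counting is not given, so reads of antisense partners cannot be told apart.

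The groups carry the same replicate numbers, yet deviations from the group means did not correlate between libraries of one number (mean r -0.0058, range -0.071 to 0.038, over 11243 genes), and no pairing was used. The 10 genes and the lists were chosen with earlier results of these data known. Named are the 10 genes and CCNK, from each list at most 4 called genes in each direction with a mean of at least 1 FPKM, and for each of the 10 genes with such a mean the gene of highest correlation, which for SFRP4 is not reported here. WNT2B, WNT6, WNT7B, NOTUM, MYC and RNF43 lie outside this rule and were named after their values were seen. The cell type markers are lists of their own.

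Alternatives were other pseudocounts, no filter, rescaling, quantile normalization, another variance model, a replicate block, limma-voom on recovered fragments, other thresholds and leaving out each library.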

Additional observations from a re-analysis of the deposited data

Results flagged for a closer look

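The response to the siRNAs differed between siCyclin K#1 and siCyclin K#2 for 4 of the 10 genes by limma's test of that difference, siCyclin K#1 being higher each time, where 29.4% of all genes were called. The log2 difference was 1.62 for SFRP4 and 0.34 for DKK1, with adjusted p of 9.8e-05 and 9.3e-05. It was 0.99 for WNT11 (adjusted p = 0.0489), with 5 to 30 fragments per library behind it, and 0.25 for WLS (adjusted p = 0.0452). The calls of WNT11 and WLS held in only 1 and 3 of 9 fits without 1 library, and both were lost without the filter on low values and after median-ratio rescaling or quantile normalization. Groups of 3 libraries were too small to check for a single library far from its group.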

How the results depend on the processing

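Of 774 fold changes recomputed for the 10 genes, 716 kept their direction and side of the threshold. Another 41 kept their direction but were no longer past it, and 2 newly passed it. The other 15 changed sign, all of them changes not called in the main fit, and 0 called changes reversed. At the study's threshold (fold over 3, unadjusted p under 0.01) the counts of called genes were 2 for both siRNAs together, 3 for siCyclin K#1, 1 for siCyclin K#2 and 1 between the siRNAs, and at a fold over 2 they were 3, 4, 2 and 1. The direct comparison of the siRNAs called 2 genes, in place of 4, without a filter, after median-ratio rescaling or quantile normalization, and by limma-voom on recovered fragments (8 genes testable); the cause was not tested. Without 1 library in turn the counts were 7 to 8 over both siRNAs, 9 to 10 after siCyclin K#1, 8 after siCyclin K#2 and 2 to 4 between them, the tenth call after siCyclin K#1 being WLS without the first siCyclin K#1 library (adjusted p = 0.0467). Under a replicate block the counts were 7, 9, 8 and 4. The block ended the call of WNT11 over both siRNAs (adjusted p = 0.095) and between them (0.098), and added a difference between the siRNAs for SFRP1 (0.038). The fall of DKK1 after siCyclin K#2 was not called when limma's variance trend was left out (adjusted p = 0.068). With a pseudocount of 1 the WNT11 change over both siRNAs was 0.23 (adjusted p = 0.096), and by limma-voom 2.89 (0.076). Depth limits WNT11, at 0 to 30 fragments per library, and WNT9A and SFRP4 in the scrambled libraries, at 23 to 51 and 32 to 44 fragments.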
